A study of Mus musculus with 10 samples.

Results

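H3K27me3, trimethylated lysine 27 of histone H3, was mapped by ChIP-seq in bone marrow-derived macrophages of C57BL/6 mice, and the comparison described here sets macrophages stimulated with LPS and interferon-gamma (M1) against unstimulated macrophages (M0), with both genotypes pooled. It uses 6 of the 10 libraries of the study, chosen by their labelled stimulation, and chromosomes 1 to 19. The M1 group had 4 libraries, 2 replicates each of PERK knockout (KO, Eif2ak3 fl/fl x LysMcre) and wild type (WT, Eif2ak3 fl/fl). The M0 group had 2 libraries, 1 per genotype, so neither genotype has an M0 replicate and the spread of M0 is known only across genotypes. The 4 libraries of IL-4-stimulated cells (M2, 2 replicates per genotype) are set beside them. Every culture had 7 days of M-CSF at 20 ng/ml. M1 cells then had LPS at 20 ng/ml with interferon-gamma at 50 ng/ml for 24 h, M2 cells had IL-4 at 20 ng/ml for 24 h, and M0 cells had neither. PERK, a kinase of the unfolded protein response, is the product of Eif2ak3. In KO cells Cre driven from the myeloid LysM promoter deletes the floxed alleles, which WT cells carry without Cre. A list of H3K27me3 regions says nothing about that deletion, and Eif2ak3 had no region over its body in any of the 10 libraries.

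H3K27me3 is written by Polycomb repressive complex 2, whose catalytic subunit is Ezh2 or Ezh1, and is bound by the Cbx subunits of Polycomb repressive complex 1. It lies over genes that are silent but can be opened, and in differentiated cells it forms broad domains over developmental transcription factors. The demethylase Kdm6b, itself induced by LPS, can remove it. LPS acts through Toll-like receptor 4 and NF-kappaB, and interferon-gamma through the JAK kinases and factors that bind GAS elements. Inflammatory effectors such as Nos2, the inducible nitric oxide synthase, and feedback inhibitors such as Socs1 and Socs3, which block cytokine receptor signalling, are textbook targets of these pathways.

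The promoters of 4 genes whose H3K27me3 lay in opposite states are shown so that the sequence behind the values is visible. They are RefSeq sequences of GRCm38.p6 (the mm10 assembly), 5′ to 3′ on the strand of the gene, from 250 bases before to 50 bases after the start. Capitals mark a match to a GAS element (TTCNNNGAA) or to an interferon-stimulated response element (ISRE, GAAANNGAAA), searched on both strands. The first 3 lay under an H3K27me3 region in both M0 libraries and in no M1 library, and the fourth, wholly or in part, in all M1 libraries and in no M0 library.
Socs3, chr11:117969317-117969616, minus strand: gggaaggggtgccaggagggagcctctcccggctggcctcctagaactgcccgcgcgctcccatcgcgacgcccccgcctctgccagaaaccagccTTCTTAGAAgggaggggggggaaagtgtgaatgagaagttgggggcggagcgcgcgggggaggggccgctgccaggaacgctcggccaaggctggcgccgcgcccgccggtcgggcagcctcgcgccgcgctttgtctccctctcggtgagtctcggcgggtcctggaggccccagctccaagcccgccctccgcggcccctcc
Socs1, chr16:10785487-10785786, minus strand: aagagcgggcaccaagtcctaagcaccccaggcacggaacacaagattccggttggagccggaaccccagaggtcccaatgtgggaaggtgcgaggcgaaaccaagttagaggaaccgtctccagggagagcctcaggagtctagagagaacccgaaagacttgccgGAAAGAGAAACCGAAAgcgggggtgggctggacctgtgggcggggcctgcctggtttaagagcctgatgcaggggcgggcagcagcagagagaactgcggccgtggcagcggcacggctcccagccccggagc
Dusp2, chr2:127335909-127336208, plus strand: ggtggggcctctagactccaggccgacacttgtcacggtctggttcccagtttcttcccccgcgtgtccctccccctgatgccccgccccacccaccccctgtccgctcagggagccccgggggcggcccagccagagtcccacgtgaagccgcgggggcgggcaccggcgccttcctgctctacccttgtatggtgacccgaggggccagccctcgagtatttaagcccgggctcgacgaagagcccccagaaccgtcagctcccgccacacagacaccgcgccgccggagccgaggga
Fpr3, chr17:17970208-17970507, plus strand: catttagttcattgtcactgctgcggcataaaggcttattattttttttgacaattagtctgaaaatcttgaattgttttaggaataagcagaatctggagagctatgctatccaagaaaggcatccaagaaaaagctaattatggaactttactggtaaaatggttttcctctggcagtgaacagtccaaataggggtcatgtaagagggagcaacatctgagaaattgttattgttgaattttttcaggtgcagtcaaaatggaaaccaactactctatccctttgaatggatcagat
The Socs3 promoter held 1 GAS match, which begins at -154 from the start. The Socs1 promoter held 2 overlapping ISRE matches, at -83 and -77. No match to either motif, or to the NF-kappaB site searched by name (kappaB), was found in the windows of Dusp2 and Fpr3. Of 16456 promoters of the same length, 7.88% held a GAS match, 3.42% an ISRE match and 4.70% a kappaB match. GC content was 73.3% at Socs3, 63.3% at Socs1, 70.7% at Dusp2 and 36.3% at Fpr3. H3K27me3 regions covered 0% of the Socs3, Socs1 and Dusp2 windows in each M1 library, 100% in each M0 library, and 0% in each M2 library. The Fpr3 window was covered over 100%, 99.3%, 69.7% and 100% in M1 libraries, 0% in both M0 libraries, and 0%, 0%, 91.7% and 64.7% in M2 libraries. Here and below, values within M1 and within M2 are in the order KO replicate 1, KO replicate 2, WT replicate 1 and WT replicate 2, and values within M0 in the order KO, WT.

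The M1 and M0 libraries differed in depth and fragment length, which bears on every comparison below. Depth was 18.4 to 19.9 megatags in M1 and 14.5 and 12.6 megatags in M0. The fragment length in the file headers was 178 to 190 bp in M1 and 372 and 352 bp in M0, and 178 to 190 bp in M2. Regions held 45.0% to 48.5% of the tags in M1, against 64.1% and 62.6% in M0. Depth, fragment length and stimulation cannot be told apart in this design, and no input library was used in calling regions. One M2 library, KO replicate 2, had an M0-like depth of 14.2 megatags with a fragment length of 188 bp. With 4 libraries against 2, the exact permutation test has 15 arrangements and cannot give a p below 0.0667, so no difference between M1 and M0 can pass 0.05 by that test. Genes were therefore called where the libraries of the groups did not overlap and the group means differed by at least 25 percentage points, and counts of list members are to be read against the share of all genes called in the same way. The series' design text calls the M1 and M2 replicates biological ones.

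M1 macrophages carried more H3K27me3 territory than M0 macrophages, and its regions were wider. Autosomal regions covered 226, 241, 216 and 240 Mb in M1 and 176 and 156 Mb in M0, so the groups did not overlap. The mean was 231 ± 12.0 Mb in M1 (SD, n = 4) against 166 Mb in M0 (n = 2), 1.39 times as much (exact two-sided permutation test, p = 0.0667, the smallest possible). Total tags were 1.42 times higher in M1, in the same order of groups, and the part of depth in the covered length was not tested. The number of regions was 32023, 32920, 32125 and 33522 in M1 and 36468 and 32209 in M0, which overlap (exact permutation test, p = 0.267). In an alternative chosen after seeing the data, libraries were cut to their densest 156 Mb by tags per kb. That is the full length of the WT M0 library, which was left whole. M1 libraries then held 9478 to 13394 regions, against 28279 and 32209 in M0 libraries (exact permutation test, p = 0.0667). More was cut from M1 libraries than from M0 libraries, so their regions were not selected alike. Median region width was 2715 ± 122 bp in M1 (SD, n = 4) and 1796 and 1807 bp in M0. Regions of 20 kb or more made up 45.0%, 48.5%, 45.2% and 46.7% of the covered length in M1, against 34.2% and 34.1% in M0, a difference of 12.1 percentage points (exact permutation test, p = 0.0667).

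**Figure D1:**
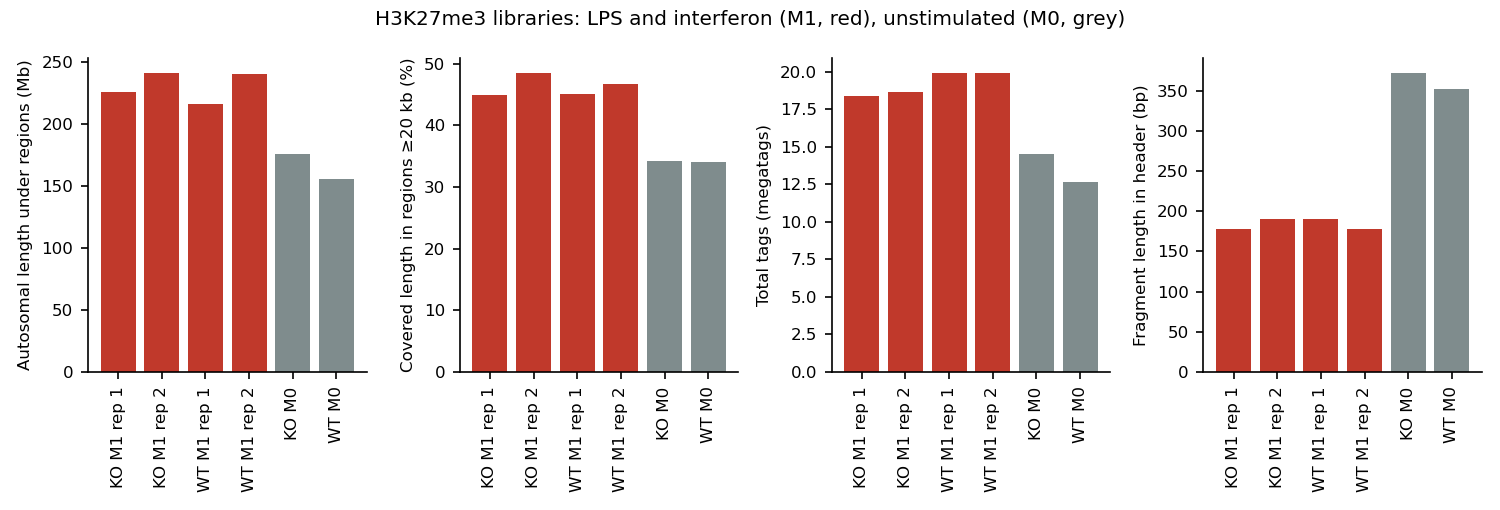
Autosomal length under H3K27me3 regions (Mb), share of it in regions of 20 kb or more (%), total tags (megatags) and fragment length from the file header (bp), with 1 bar per library (4 M1 in red, 2 M0 in grey). All 4 M1 libraries lie above both M0 libraries in covered length, broad share and tags, and below both in fragment length.

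By overlap of their H3K27me3 regions, M1 libraries were closer to each other than to M0 libraries, and pairs of M1 with M2 libraries overlapped the M1 pairs in range. The Jaccard index, the length shared by a pair of libraries over the length covered in either, averaged 0.677 between M1 libraries (6 pairs), 0.717 between the M0 libraries of the opposite genotypes (1 pair) and 0.487 between M1 and M0 libraries (8 pairs). The same-state mean was 0.196 above the different-state mean (exact permutation test, p = 0.0667). The index of a pair cannot exceed its shorter length over its longer one, so the unequal covered lengths limit the pairs of M1 with M0. With lengths made equal, the difference was 0.0698 when matched by score and 0.197 when matched by tags per kb. It was 0.110 with the upper 50% of regions by the authors' score. Pairs of M1 and M2 libraries averaged 0.639 (16 pairs, 0.581 to 0.707), as did pairs of M2 libraries (6 pairs, 0.546 to 0.729), and the range of the M1 pairs, 0.648 to 0.700, lies inside both. Pairs of M2 and M0 libraries averaged 0.547 (8 pairs, 0.4518 to 0.6605), the highest being KO M0 with KO M2 replicate 2. In windows of 1 kb, 343706 kb were called in at least 1 of the 6 libraries and 100229 kb, 29.2%, in all 6. All 4 M1 libraries and neither M0 library held 37619 kb (10.9% of the kb called in any), and both M0 libraries and no M1 library held 9535 kb (2.77%). These windows formed 16541 runs for M1, the longest 32 kb, and 6665 for M0, the longest 15 kb. A state with 2 libraries reaches agreement more easily than a state with 4, so the sizes of these sets are not comparable as such.

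Over gene bodies, the share of the body lying under a region was lower in M1 for 581 of 20661 autosomal protein-coding genes (2.81%) and higher for 692 (3.35%). Of these genes, 8573 had any cover in the 6 libraries, 12088 had none, and 2140 had at least 50% of the body covered in all 6. At least 50% of the body was covered in all M1 and no M0 library for 276 genes (1.34%) and in both M0 and no M1 library for 245 genes (1.19%). In the 2 kb around the gene start, measured for 16456 genes, the balance was the other way, with 664 genes lower in M1 (4.04%) and 251 higher (1.53%). At the length matched by tags per kb, 890 genes were lower over the body (4.31%) and 296 higher (1.43%). Of the 581 genes lower in M1, 532 (91.6%) were also lower at matched length, while 283 (40.9%) of the 692 higher genes were also higher. The cut left the WT M0 library whole and took more from M1 libraries than from the KO M0 library. Cutting the M1 libraries can only lower their cover, so this shift toward lower calls was in part set in advance. limma on the covered percentages of the 8573 genes with any cover called 907 lower (10.6%) and 703 higher (8.2%) at an adjusted p of 0.05.

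The genes on the opposite sides differed in base composition. Median promoter GC was 58.3% for genes lower in M1 with a promoter sequence (425 genes), 51.3% for genes higher in M1 (555 genes), 59.0% for genes covered in all 6 libraries (1586 genes) and 56.7% for all 16456. With genes ranked by promoter GC and cut into 5 equal groups, 0.456% were lower and 4.56% higher in the most AT-rich group, against 2.61% lower and 1.91% higher in the most GC-rich. At matched length the AT-rich group had 1.03% lower and 1.12% higher. Genes higher in M1 were longer, with a median of 20.5 kb, against 8.28 kb for genes lower in M1 and 17.3 kb for all. Among families, 4 of 1104 olfactory receptor genes were lower (0.362%) and 32 higher (2.90%), both under the shares of all genes, and 9 of 53 keratin genes were lower (17.0%) and 1 higher (1.89%). GC content of the libraries themselves was not measured, and its part in these shares was not tested.

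**Figure D2:**
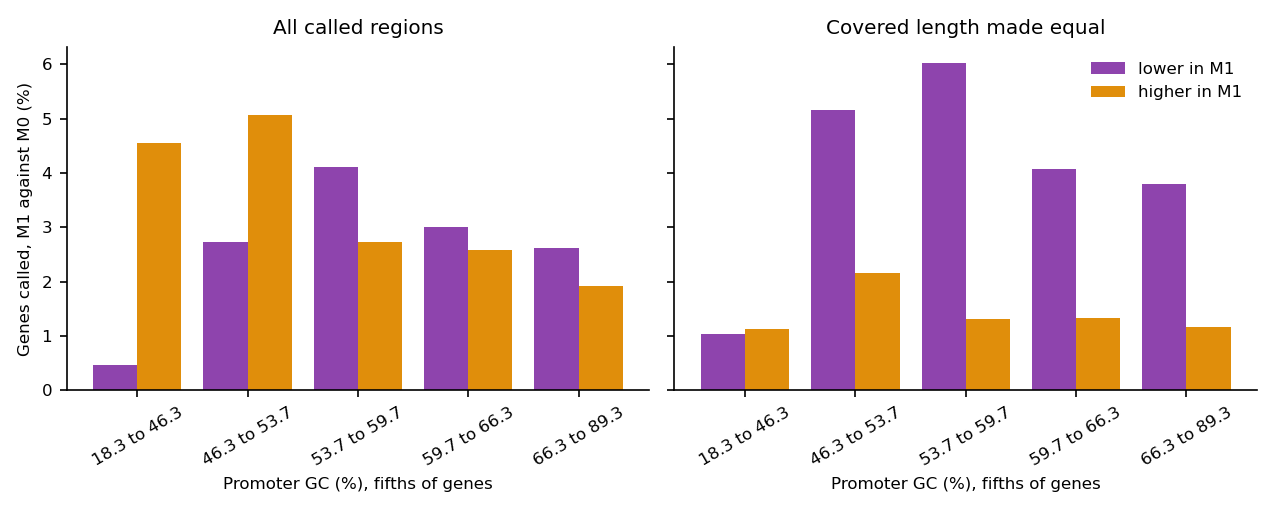
Percent of genes called lower (purple) or higher (orange) in M1 than in M0 over the gene body, in 5 equal groups of genes by promoter GC (%), with all called regions (left) and with libraries cut to the covered length of the WT M0 library, itself left whole (right). In the most AT-rich group 4.56% of genes were higher with all regions and 1.12% at matched length.

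Among the inflammatory effectors the widest difference lay over Nos2, the enzyme that makes nitric oxide in LPS and interferon-stimulated macrophages. The Nos2 body (chr11:78920787-78960226) was covered over 7.74%, 14.0%, 5.73% and 0% in M1 libraries, 92.8% and 89.6% in M0 libraries, and 91.9%, 92.0%, 82.2% and 92.0% in M2 libraries. All 4 M1 libraries were low, and the M0 and M2 libraries were all high. The mean was 6.86 ± 5.76% in M1 (SD, n = 4), with a difference of -84.3 percentage points from M0 (exact permutation test, p = 0.0667) and of -82.7 points from M2 (exact permutation test of 4 against 4 libraries, 70 arrangements, p = 0.0286, the smallest possible). The p-values between M1 and M2 given for single genes are unadjusted, and none of the 90 named genes passed Benjamini-Hochberg adjustment over them (lowest adjusted p = 0.321, exact permutation tests). In M0 a region ran from 0.786 to 37.4 kb of the 39.4 kb gene in the KO library and from 1.97 to 37.3 kb in the WT library. Regions to the left of the gene were present in all 10 libraries. The 2 longest runs of windows found in both M0 and no M1 library anywhere on the autosomes, 15 kb (chr11:78930001-78945000) and 12 kb (chr11:78946001-78958000), both lay inside Nos2. The M2 libraries covered them over 77.7% to 100%. The result depends on how regions are ranked, since with only the upper 50% of regions by the authors' score the M1-minus-M0 difference was 0.634 points, and at a length matched by score it was -39.8 points. At a length matched by tags per kb, chosen after seeing the data, it was -90.5 points. The lowest score was 25 and the median 27 in KO M1 replicate 1, against 20 and 23.5 in the WT M0 library.

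**Figure D3:**
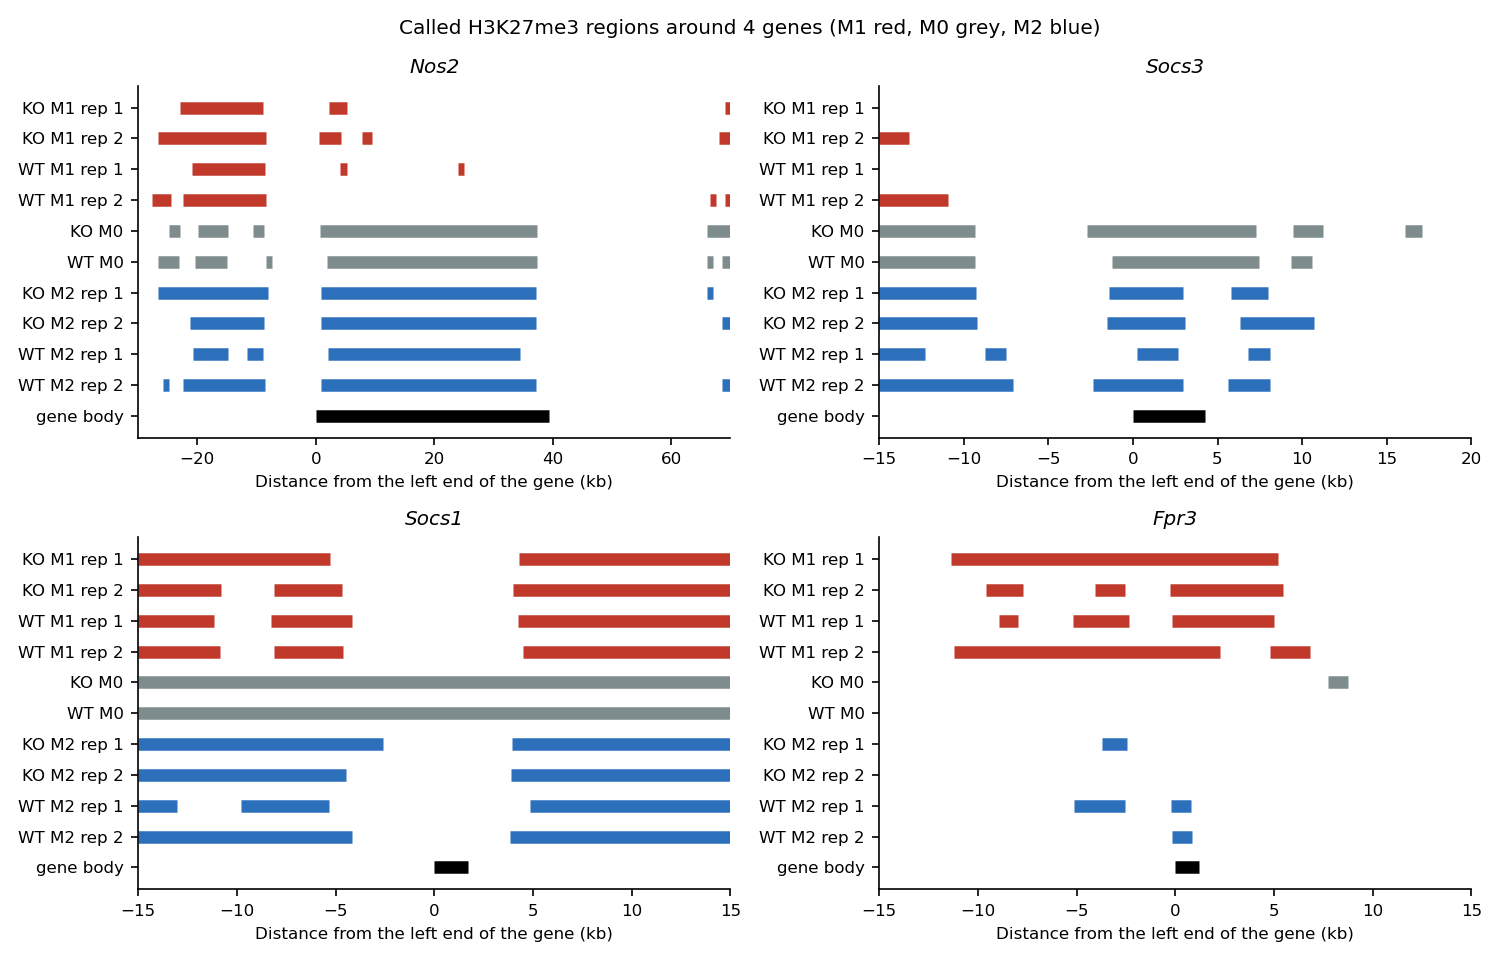
Called H3K27me3 regions (thick bars) in each of 10 libraries around Nos2, Socs3, Socs1 and Fpr3, drawn as distance from the left end of the gene (kb), with the gene body in black (M1 red, M0 grey, M2 blue). Over Nos2 and Socs3 the M1 libraries lack the region that M0 and M2 libraries carry, over Socs1 only the M0 libraries have no gap, and over Fpr3 all M1 libraries have a region and no M0 library does.

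Among 56 LPS and interferon effectors measured over the body, 29 had no region in any of the 6 libraries, beside 12088 of all 20661 genes. In M1, 5 were lower (8.93%, beside 2.81% of all genes) and none was higher. Besides Nos2 they were Lcn2 (lipocalin 2, an iron-withholding defence protein), Cd40 (the receptor for T cell help), Csf3 (the cytokine G-CSF) and Batf2 (a transcription factor induced by interferon-gamma). Lcn2 was covered over 0%, 48.6%, 25.8% and 0% in M1 and 100% in both M0 libraries, but with the upper 50% of regions by score its difference turned to 12.2 points. Cd40 was at 0% in each M1 library and at 43.1% and 25.7% in M0. Csf3 was also at 0% in each M1 library, with 29.0% and 36.5% in M0, and had no region in either group with regions under 2 kb left out. Batf2, which met the rule narrowly, had 0%, 12.4%, 0% and 0% in M1 and 17.1% and 41.8% in M0. The cytokine genes Il6 and Il12b were not called over the body. Il6 had a region in KO M1 replicate 1 alone, over 20.2% of the gene, and none in any M0 library. Il12b, which encodes the p40 subunit of IL-12, was at 0% in each M1 library and at 6.24% and 5.41% in M0. The effector list and the others below were drawn up with earlier results of these data known, so their counts are descriptions.

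At gene starts, 4 of 39 effectors were lower in M1 (10.3%, beside 4.04% of all genes) and none higher. Some list genes called at starts are named here and below although the naming rule covered bodies only, after their values were seen. Around the Il12b start, 0% of the 2 kb was covered in each M1 library and 50% in each M0 library. Ptgs2, which encodes the prostaglandin synthase COX-2, was at 0% in each M1 library and at 76.2% and 50.0% in M0. Irf8, a transcription factor of the interferon response and of the monocyte lineage, was at 0% in M1, at 46.6% and 36.3% in M0, and at 38.8%, 48.8%, 0% and 29.2% in M2. F3, which encodes tissue factor, was at 82.4%, 90.2%, 66.0% and 55.9% in M1 and 100% in M0. With regions under 2 kb left out, 1 of the 39 starts was called. Over bodies the count of 5 effectors went to 3 at a length matched by tags per kb and to 0 with the upper 50% of regions by score.

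Feedback inhibitors of inflammatory signalling gave the highest share of lower starts among the 18 lists, with 7 of 24 starts lower in M1 (29.2%, beside 4.04% of all genes) and none higher. Over the body 4 of 33 were lower (12.1%) and none higher. In the 6 libraries 22 had no region, beside 12088 of all 20661 genes. The 4 were Socs1, Socs3, Cish and Dusp2. Socs1 and Socs3, which encode inhibitors of JAK kinase signalling, were at 0% in each M1 library and 100% in each M0 library over the body (chr16:10783808-10785536 and chr11:117966079-117970336), a difference of -100 points each (exact permutation test, p = 0.0667). With the upper 50% of regions by score it was -50.0 points each (exact permutation test, p = 0.333). Their M2 values differed. Socs1 was at 0% in each M2 library, whereas Socs3 was at 68.9%, 71.9%, 57.8% and 69.5%, a difference of -67.1 points for M1 minus M2 (exact permutation test, p = 0.0286). The Socs3 promoter window printed above was nonetheless free of regions in M2, because the M2 regions over Socs3 ended 2.69 to 3.06 kb from the left end of the 4.26 kb gene, short of the start site used here. In M0, Socs1 lay inside a region that ran to 104 kb on the right in both libraries. In M1 that domain was interrupted at the gene, and resumed 3.98 to 4.49 kb from its left end.

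Cish, an inhibitor of STAT5 signalling, was covered over 31.9%, 0%, 16.3% and 16.3% in M1, 79.7% and 100% in M0, and 64.2%, 64.8%, 21.7% and 40.5% in M2. Dusp2, a nuclear phosphatase of MAP kinases, was at 0% in each M1 library, 63.4% and 50.0% in M0, and 0% in each M2 library, and its difference was 0 with the upper 50% of regions by score. The starts of Dusp5, Dusp16 and Atf3 were lower in M1 as well. For Dusp5, a phosphatase of ERK, cover was 13.5%, 36.5%, 17.9% and 0% in M1, against 100% in both M0 libraries and in 3 of 4 M2 libraries. Dusp16, a phosphatase of JNK and p38, was at 0% in each M1 library and 39.0% and 39.1% in M0. Atf3, a transcription factor that restrains Toll-like receptor responses, was at 0% in M1 and 43.1% and 14.0% in M0. The counts of the list were the same, 4 bodies and 7 starts, without any of the M1 libraries and without the WT M0 library, and were 4 and 6 without the KO M0 library and at a length matched by tags per kb. With the upper 50% of regions by score they were 2 and 3.

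**Figure D4:**
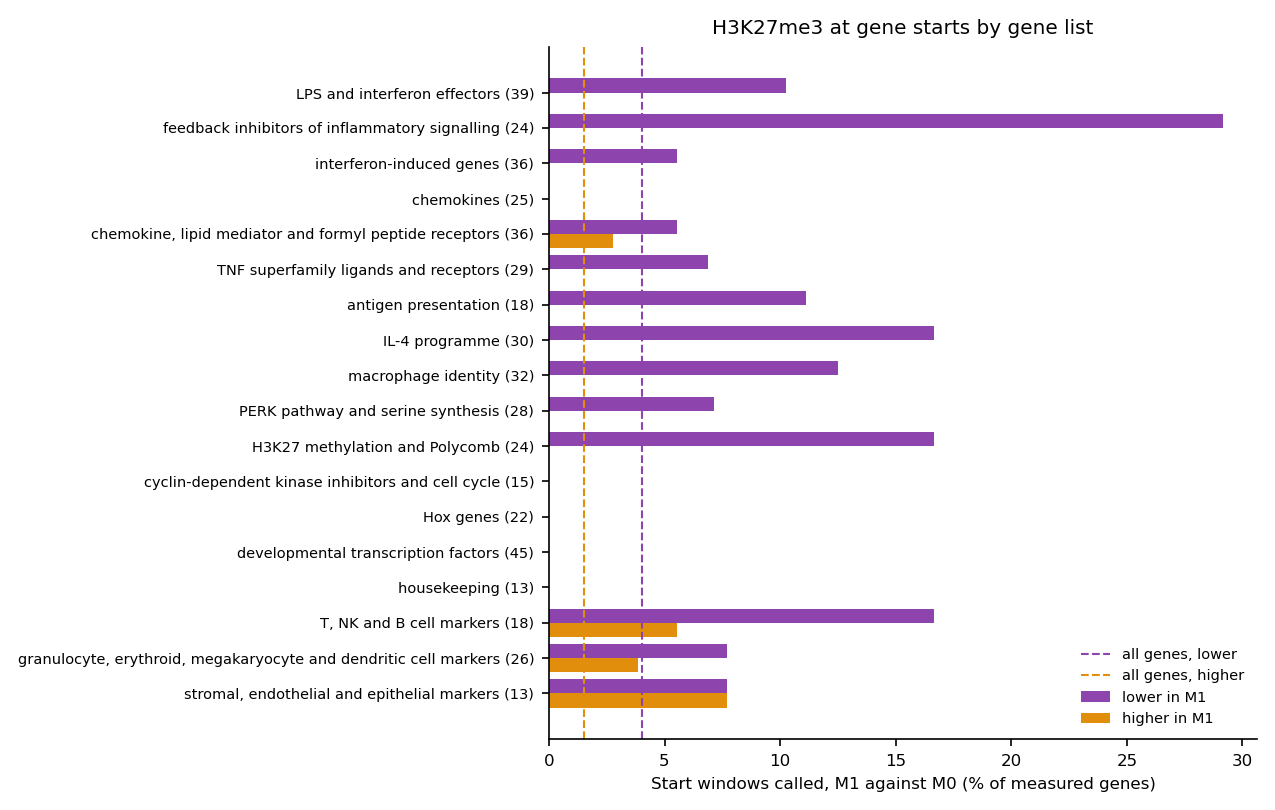
Percent of measured genes in each of 18 lists whose start window (1 kb either side of the start) was called lower (purple) or higher (orange) in M1 than in M0, with the number measured in brackets and dashed lines at the shares of all genes. Feedback inhibitors stand at 29.2% lower, against 4.04% of all genes, and Hox genes, developmental transcription factors and housekeeping genes stand at 0%.

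Of 47 interferon-induced genes, 38 had no region over the body in the 6 libraries, beside 12088 of all 20661 genes. Over the body none was lower and 1 was higher (2.13%, beside 3.35% of all genes). At starts 2 of 36 were lower (5.56%, beside 4.04%). Gbp7, an interferon-inducible guanylate-binding GTPase, was at 0% in each M1 library and at 100% in both M0 libraries and all 4 M2 libraries (M1 against M2, exact permutation test, p = 0.0286). Cover of its start window did not overlap between M1 and either other state. Gbp7 was named after its values were seen, and its p-value is unadjusted and outside the 90 tests adjusted above. Guanylate-binding proteins are close paralogs, and reads could be shared between copies. Slfn5, a Schlafen family member, was at 22.3%, 0%, 7.2% and 0% in M1 and 65.9% and 47.1% in M0. The higher gene was Aim2, a cytosolic DNA sensor, with 41.9% to 42.4% in M1 and 11.9% and 9.57% in M0. The annotated Aim2 span is 116 kb long, so its cover need not lie at the sensor's own exons.

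Chemokine ligands showed no lower gene. Of 34 measured, 2 were higher over the body (5.88%, beside 3.35%) and none of 25 was called at the start. Ccl11 (eotaxin, which attracts eosinophils) was covered over 100%, 100%, 100% and 89.3% in M1 and 19.8% and 17.5% in M0. For its neighbour Ccl8, a monocyte chemoattractant, the values were 100%, 93.8%, 100% and 100% in M1, and 80.8% and 0% in M0, so the KO M0 library was close to M1. Chemoattractant receptors were called in both directions, with 4 of 44 lower (9.09%, beside 2.81%) and 2 higher (4.55%, beside 3.35%). Ccr8, Ccr4 and Ccr6, chemokine receptors of lymphocytes, and S1pr3, a sphingosine-1-phosphate receptor, were the lower ones. Ccr8 had 36.0%, 49.1%, 45.6% and 47.9% in M1 and 100% in both M0 libraries.

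The higher receptors were Fpr3 and Ptgdr. Fpr3, of the formyl peptide receptor family, was covered over 100% of its 1.22 kb in each M1 library, over 0% in both M0 libraries, and over 0%, 0%, 63.5% and 70.2% in M2, a difference from M2 of 66.6 points (exact permutation test, p = 0.0286). At a length matched by tags per kb only 1 of 4 M1 libraries kept the region, a difference of 25 points (exact permutation test, p = 1). A 26 kb run found in all M1 and no M0 library lay to its left, at chr17:17800001-17826000. Ptgdr, a prostaglandin D2 receptor, was at 78.7%, 69.6%, 47.0% and 100% in M1 and 26.6% and 21.0% in M0, and at a length matched by tags per kb its difference was 8.90 points. At the start, Adora2b, an adenosine receptor, was lower, with 0% in each M1 library and 75.6% and 71.8% in M0. In all, 2 of 36 receptor starts were lower (5.56%, beside 4.04%) and 1 higher (2.78%, beside 1.53%).

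In the TNF superfamily, 2 of 35 genes were lower and 2 higher (5.71% each, beside 2.81% and 3.35%). The lower genes lie near each other in the major histocompatibility complex, Ltb at chr17:35194507-35196305 and Lta at chr17:35203165-35205578. Lta (lymphotoxin alpha) was at 0% in each M1 library and at 80.7% and 70.4% in M0. Ltb (lymphotoxin beta) was at 0%, 62.8%, 61.0% and 54.8% in M1 and 100% in both M0 libraries. Tnfsf4 (OX40 ligand) was higher, with 79.2%, 69.9%, 53.7% and 71.2% in M1, 20.5% and 20.3% in M0, and 23.8% to 50.1% in M2 (M1 against M2, exact permutation test, p = 0.0286). Tnfsf13b, the B cell survival factor BAFF, had 21.2% to 44.0% in M1 and 8.54% and 5.07% in M0, but at a length matched by tags per kb its difference was -0.37 points. At starts 2 of 29 were lower (6.90%, beside 4.04%), Lta and Tnfsf8 (CD30 ligand). Antigen presentation genes were also called both ways, 2 lower and 2 higher of 24 (8.33% each, beside 2.81% and 3.35%). H2-Oa, a subunit of the class II modulator H2-O, and the class I gene H2-Q4 were lower, and Cd1d1, which presents lipids, and the class II gene H2-Eb2 were higher. The H2-Oa difference turned to 3.28 points with regions under 2 kb left out. The start of H2-Aa, which encodes a class II alpha chain, was at 0% in each M1 library and at 71.4% and 50.0% in M0, and 2 of 18 starts of the list were lower (11.1%, beside 4.04%). Cd1d1 had 37.0%, 29.6%, 30.0% and 60.6% in M1, 8.86% and 6.05% in M0, and 0% to 6.05% in M2. H2 genes have near-identical copies, and the authors' handling of reads that map to several of them is not given in the sources used here.

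Genes of the IL-4 programme were lower in M1 in 4 of 42 cases (9.52%, beside 2.81% of all genes) and higher in 1 (2.38%, beside 3.35%), and at starts in 5 of 30 (16.7%, beside 4.04%) and none. Among them Cish and Socs1 also belong to the feedback list. Ch25h, which makes 25-hydroxycholesterol, was covered over 0%, 0%, 4.47% and 0% in M1, 90.3% and 88.7% in M0, and 65.8%, 61.6%, 0% and 0% in M2. Klf4, a transcription factor of monocytes, had 18.7%, 23.9%, 18.7% and 0% in M1, 43.9% and 55.1% in M0 and 0% in each M2 library. The start of Vegfa, the angiogenic growth factor, was at 15.6%, 34.2%, 20.9% and 18.6% in M1 and 100% in both M0 libraries. Cd209a, a C-type lectin, was the higher gene, with 100% in each M1 library and 22.9% and 89.8% in M0. Arg1, which encodes arginase 1 and marks IL-4 stimulation, had no region in any of the 10 libraries. Irf4, another factor of the IL-4 response, had 17.6% to 22.2% in M1, 16.8% and 15.3% in M0, and was not called.

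Of 44 macrophage identity genes, 32 had no region over the body in the 6 libraries, beside 12088 of all 20661 genes. In M1, 3 were lower (6.82%, beside 2.81% of all genes) and none higher. C1qa, a chain of complement C1q, had 0%, 0%, 34.1% and 0% in M1 and 95.5% and 92.7% in M0. Id3, an inhibitor of helix-loop-helix factors, had 0%, 59.8%, 0% and 61.4% in M1 and 100% and 95.4% in M0, so each genotype had 1 M1 library at 0% and 1 in the middle of the scale, and with regions under 2 kb left out the difference was 0. Apoe, an apolipoprotein, had 0%, 0%, 24.8% and 0% in M1 and 26.3% and 49.6% in M0, which nearly meet. At starts 4 of 32 were lower (12.5%, beside 4.04%), among them Mertk and Axl, receptors for apoptotic cells. Mertk was at 0% in each M1 library and 50.0% in both M0 libraries. In a start window of 2 kb, cover of 50.0% equals the 1000 bp window used in calling regions. Axl had 0%, 50.0%, 0% and 50.0% in M1 and 100% in both M0 libraries. The nuclear receptor gene Nr4a1 had 43.7%, 50.0%, 53.1% and 36.8% in M1 and 90.4% and 81.4% in M0.

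**Figure D5:**
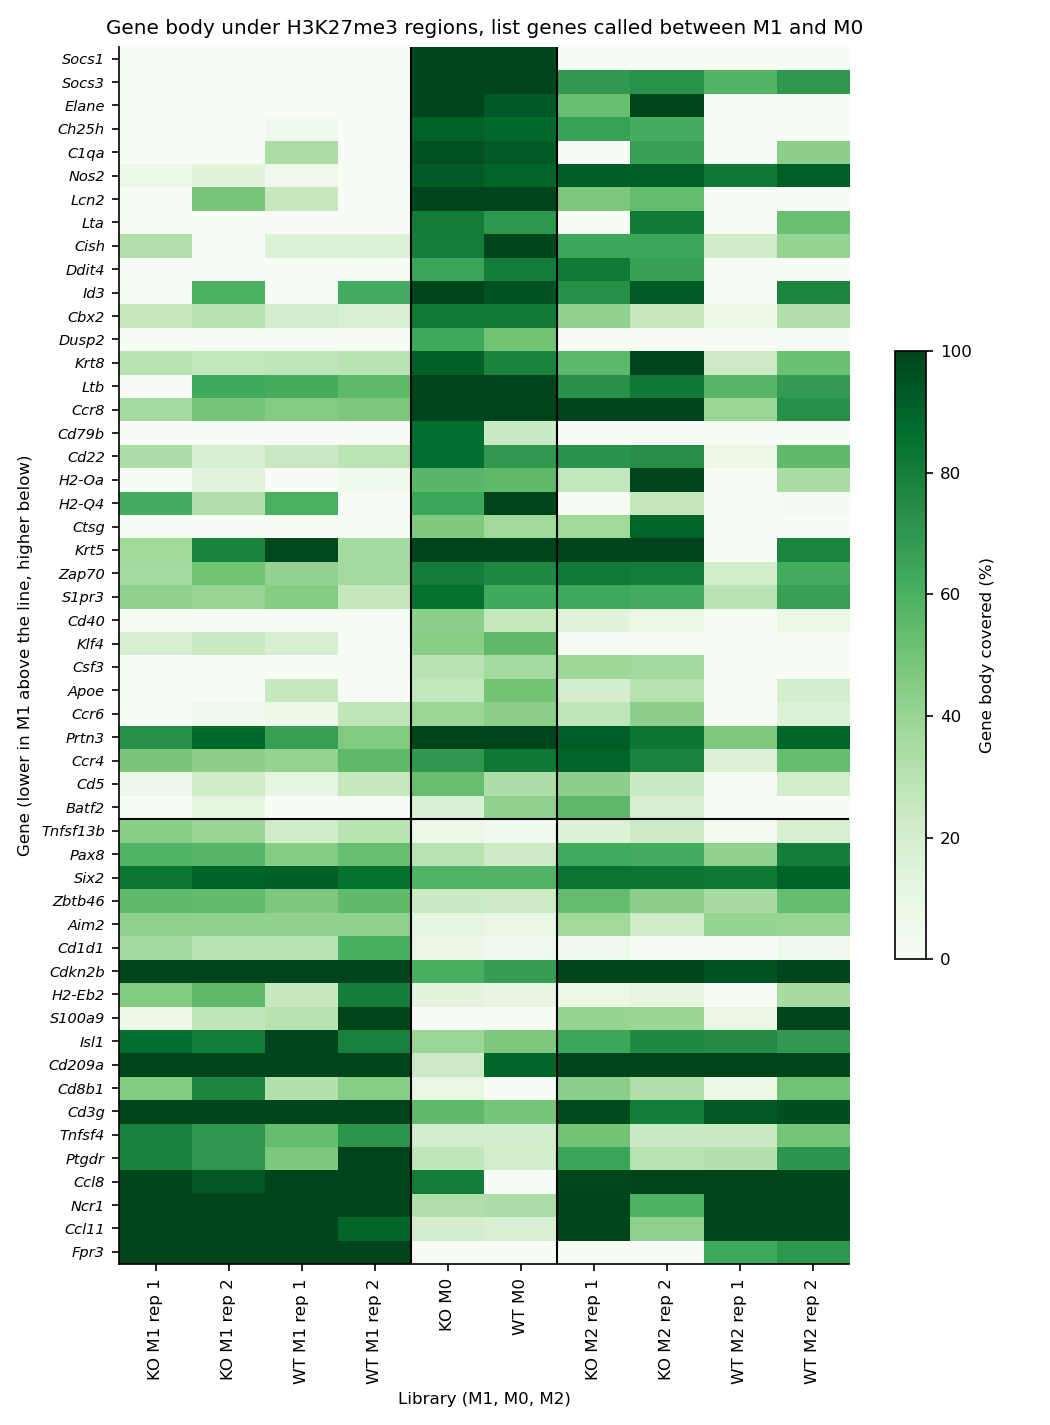
Percent of the gene body under H3K27me3 regions (white 0%, dark green 100%) for each list gene called between M1 and M0, with 1 column per library in the order M1, M0, M2, and genes lower in M1 above the horizontal line. Nos2 is pale in M1 alone, Socs1 and Dusp2 are coloured in M0 alone, and Fpr3 is dark in M1 with 2 M2 libraries between.

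Genes of the Polycomb machinery were called lower in M1 mostly around their starts. Over the body 1 of 30 was lower (3.33%, beside 2.81% of all genes) and none higher, and at starts 4 of 24 were lower (16.7%, beside 4.04%) and none higher. Cbx2, a chromodomain subunit of Polycomb repressive complex 1, had 25.7%, 30.9%, 20.4% and 17.9% in M1, 81.5% and 81.4% in M0, and 8.16% to 42.1% in M2, but with the upper 50% of regions by score its difference turned to 16.2 points. Pcgf5, a RING finger subunit, was at 0% around its start in each M1 library and at 100% in both M0 libraries. Bmi1, another RING finger subunit, had 49.8%, 33.2%, 26.2% and 36.5% around its start in M1 and 59.5% and 74.9% in M0. The starts of Cbx6 and Phc2 were the others called. Ezh2 had no region in any library. Kdm6b, the demethylase, was lower without overlap but below the size rule, with 9.45%, 15.8%, 3.47% and 8.68% in M1 and 35.05% and 23.86% in M0.

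In the PERK pathway and serine synthesis list, 1 of 31 bodies was lower (3.23%, beside 2.81%) and 2 of 28 starts (7.14%, beside 4.04%). The gene was Ddit4, a stress-induced inhibitor of mTORC1. It was at 0% in each M1 library, 65.2% and 80.2% in M0, and 81.3%, 66.6%, 0% and 0% in M2. Chac1, a target of the PERK branch that degrades glutathione, had 0%, 54.0%, 0% and 0% around its start in M1 and 85.0% and 80.0% in M0. Of 19 cell cycle genes, 1 was higher over the body (5.26%, beside 3.35% of all genes) and none lower. It was Cdkn2b, the inhibitor of CDK4 and CDK6 known as p15, with 100% in each M1 library and 60.6% and 67.4% in M0. At a length matched by score its difference was -14.0 points.

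Developmental genes, the classical Polycomb targets, were held in both states. Of 39 Hox genes, 36 had at least 50% of the body covered in all 6 libraries, beside 2140 of all 20661 genes. No Hox gene was called, over the body or at 22 starts. Of 65 developmental transcription factors, 53 were covered in all 6 and none of 45 starts was called. Over the body 3 were higher (4.62%, beside 3.35% of all genes) and none lower. They were Isl1, Six2 and Pax8, which specify motor neurons, kidney progenitors and thyroid. Isl1 had 86.2%, 80.2%, 100% and 79.2% in M1, 39.0% and 47.6% in M0, and 64.3% to 75.9% in M2 (M1 against M2, exact permutation test, p = 0.0286). The Isl1 difference turned to -2.32 points when only the better-scored 50% of regions were kept, and was 0 with regions joined across 5 kb. Six2 had 83.0% to 91.2% in M1 and 59.0% and 58.1% in M0. Of 18 housekeeping genes, 17 had no region over the body in the 6 libraries, beside 12088 of all 20661 genes. None of 13 housekeeping starts was called.

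Markers of other blood cells and tissues were called in both directions. Of 26 T, NK and B cell markers, 4 were lower (15.4%, beside 2.81% of all genes) and 3 higher (11.5%, beside 3.35%). These were the highest shares over the body of the 18 lists in both directions. In the 6 libraries 3 of the 26 had no region, beside 12088 of all 20661 genes. At starts 3 of 18 were lower (16.7%, beside 4.04%) and 1 higher (5.56%, beside 1.53%). The start of Lck, a T cell receptor kinase, was at 0% in each M1 library and at 75.55% and 50.0% in M0. The median difference of this list was 0.658 points, against 0 for each other list and for all genes. Cd22, Zap70, Cd79b and Cd5 were lower, and Ncr1, Cd3g and Cd8b1 higher, although the Cd8b1 difference turned to -2.49 points at a length matched by tags per kb. Cd22, an inhibitory receptor of B cells, had 33.3%, 18.0%, 24.3% and 28.6% in M1 and 86.3% and 69.2% in M0. Ncr1, an activating receptor of NK cells, was at 100% in each M1 library and at 32.7% and 33.4% in M0. Of 27 granulocyte, erythroid, megakaryocyte and dendritic cell markers 3 were lower (11.1%) and 2 higher (7.41%), and at 26 starts 2 were lower (7.69%) and 1 higher (3.85%). The lower ones encode the neutrophil granule proteases Elane, Ctsg and Prtn3. Elane was at 0% in each M1 library, 100% and 93.3% in M0, and 52.5%, 99.1%, 0% and 0% in M2. The calgranulin gene S100a9 was higher but spread widely, with 6.66%, 27.5%, 30.3% and 100% in M1 and 0% in both M0 libraries (exact permutation test, p = 0.2). Of 21 stromal, endothelial and epithelial markers, Krt5 and Krt8 were lower (9.52%), and at 13 starts 1 was lower and 1 higher (7.69% each). The higher start was that of Tek, an angiopoietin receptor of endothelial cells, with 100%, 89.6%, 91.7% and 23.85% in M1 and 0% in both M0 libraries. A region list does not measure how many cells of each kind a culture held, and their part in these values was not tested.

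By size of the difference alone, the named genes lower in M1 were led by Psapl1, Socs1, Socs3, Tex19.2 and Erich4, and the higher ones by Fpr3, Glycam1, Svs2, Tex50 and H2-M10.3. Some of the lower genes were covered in M0 only. Erich4 was at 0% in each M1 library, 99.5% and 100% in M0 and 0% in each M2 library, and Gltpd2 at 0% in M1, 95.6% and 83.4% in M0 and 0% in M2, but with regions under 2 kb left out neither had a region in any M1 or M0 library, and keeping the better-scored 50% of regions also left Erich4 without a difference. Ifnl2, an interferon lambda gene with a close paralog, had 0%, 2.23%, 0% and 0% in M1 and 100% in both M0 libraries. Glycam1, Svs2 and Tex50 had, like Fpr3, a difference of 100 points, which at a length matched by tags per kb was 25 points for Svs2, a seminal vesicle protein gene, and 50.0 points for Tex50. The cytokine gene Il20 was at 100% in each M1 and each M2 library and at 7.26% and 5.61% in M0, a difference of 22.2 points at a length matched by tags per kb. Long runs in all M1 and no M0 library lay in Adgrl3, an adhesion receptor gene (27 kb), in Neo1, which encodes the guidance receptor neogenin (21 kb), and in 4 stretches with no protein-coding gene, of 20 to 32 kb. Neo1 was covered over 80.7%, 67.7%, 59.2% and 75.7% in M1 and 16.6% and 12.1% in M0.

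The IL-4 libraries did not all side with M1. Of the 276 genes covered in all M1 and no M0 library, 242, 167, 189 and 261 were covered in the 4 M2 libraries, 121 in all of them and 4 in none. Of the 245 genes covered in both M0 and no M1 library, 123, 171, 3 and 69 were covered in M2, 2 in all of them and 58 in none. The M2 library that held 171 of the M0 genes, KO replicate 2, was also the one with M0-like depth, while KO replicate 1, with 123, had 18.3 megatags. WT replicate 2, with 69, had 17.6 megatags. WT replicate 1, with 3, had 20.9 megatags, the greatest depth of the series, and 179 Mb covered, the least in M2. The part of depth was not tested. The naming rule used the difference between M1 and M0, so the p-values of the 90 named genes for that contrast support nothing beyond the values. The same M1 values enter the tests of M1 against M2, so those p-values were not free of the choice of genes either. In 8 of the 90 named genes the M1 and M2 libraries did not overlap. The share of all genes separated in this way is not given here, so the count only describes the named genes. The 8 were Nos2 and Socs3, lower in M1, and Fpr3, Tnfsf4, Cd1d1, Isl1, Aim2 and Cd3g, higher in M1.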

How the data were processed

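H3K27me3 ChIP-seq region lists were used from 6 libraries (4 M1, 2 M0), with 4 M2 libraries set beside. Per the submitters' processing notes the build was mm10 and the tools named were HOMER 4.8, Bowtie2 2.4.2, DiffBind 2.0.2, deepTools 3.5.1 and SAMtools 1.10. Per the file headers, regions were called in each library separately, without input, with HOMER findPeaks in region mode (window 1000 bp, joining gap 2500 bp, false discovery rate 0.001). The deposited normalised tag count per region is a signal scaled to 10 megatags, and the deposited findPeaks score ranks regions. Both served only to rank regions. Library depth and share of tags in regions are from the file headers. Given the depth, counting error on that share is small beside the spread between libraries. The 4 deposited DiffBind tables were not used here.

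From the lists, the percent of each gene body (RefSeq, GRCm38.p6, 20661 autosomal protein-coding genes), of the 2 kb around 16456 starts and of 1 kb bins was computed with Python 3.11.15. Bins were called at 50% cover and genes counted as covered at 50%. Tests were exact two-sided permutations of library labels. limma 3.58.1 (R 4.3.3, trend and robust) on covered percent was an alternative. It was also run on simulated data, with the outcome not given here. Genes named were the 15 with the greatest difference each way (at least 1 kb, no receptor arrays or predicted genes), called members of 18 lists (up to 8 each), 9 fixed genes and genes in the 6 longest runs each way. Some list members are not reported here and were left out of the lists. The comparison, members and lists were chosen with earlier results of these data known. Alternatives were region rank, length matching, region width, joining, thresholds, start windows, genotype and leaving out each library.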

Additional observations from a re-analysis of the deposited data

Results flagged for a closer look

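Of 96 values tested in the group of 4 M1 libraries, 17 had 1 library whose gap to the nearest other exceeded the 95% critical value. Chance flags about 1 in 20 groups, and many of these groups hold values at 0% or 100%, where any departure stands alone. Single M1 libraries stood above the other 3 in gene body cover for Apoe (24.77%, WT replicate 1), Batf2 (12.38%, KO replicate 2), C1qa (34.14%, WT replicate 1), Ch25h (4.466%, WT replicate 1), Ifnl2 (2.23%, KO replicate 2), Il6 (20.23%, KO replicate 1), Krtap10-10 (22.45%, KO replicate 2) and Tha1 (29.45%, KO replicate 2). Single libraries stood below the others for Ccl11 (89.29%, WT replicate 2), Ccl8 (93.75%, KO replicate 2), Cd3g (99.41%, KO replicate 1), H2-M10.3 (95.81%, WT replicate 1), H2-M10.6 (58.78%, KO replicate 1), Keg1 (99.1%, WT replicate 2), Ltb (0.0%, KO replicate 1), Serpina5 (91.53%, KO replicate 2) and Zbtb46 (47.22%, WT replicate 1). For each gene but Il6 these libraries stayed on the M1 side of both M0 libraries.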

How the results depend on the processing

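Depth, fragment length, the lack of M0 replicates and region calls made per library without input limit every value, and the cause of the shifts below was not tested. The broad share and the Jaccard difference kept their direction under every alternative run. The covered length kept its direction where it could vary, since the length-matched alternatives make it equal by design. The broad share difference ranged from 6.12 points with regions joined across 5 kb to 27.9 points at a length matched by tags per kb. The Jaccard difference fell to 0.0698 at a length matched by score. With the upper 50% of regions by score, 11318 kb and 127 genes were in all M1 and no M0 library, 5445 kb and 116 genes in both M0 and no M1 library, and 351 genes were lower and 337 higher. At a length matched by score these were 9618 kb and 55 genes for M1, 13497 kb and 341 genes for M0, with 949 lower and 201 higher. At a length matched by tags per kb they were 18608 kb and 113 genes for M1, 19633 kb and 396 genes for M0, with 890 lower and 296 higher. That cut left the WT M0 library whole and fell mostly on the M1 libraries. The M1-minus-M0 number of regions was -12249.5 at a length matched by score and -19211.2 by tags per kb (p = 0.0667 each, exact permutation), and turned to 2451.2 with regions of at least 2 kb (p = 0.0667, exact permutation), to 614.5 in WT libraries alone and to 438.5 without the KO M0 library. Genes lower and higher numbered 1146 and 1240 at a difference of 10 points and 168 and 202 at 50 points. KO libraries alone gave 66283 kb and 419 genes for M1 and 28387 kb and 446 genes for M0, and WT libraries alone 66057 kb and 458 genes for M1 and 21576 kb and 387 genes for M0. Start windows gave 91 genes in all M1 and no M0 library and 251 higher. limma called 907 lower and 703 higher after adjustment, and 1492 and 1360 before it. Leaving out each library in turn moved the number of regions between -3820.5 and 438.5, the kb in both M0 and no M1 library between 10599 and 20831 (14715 without the KO M0 and 20831 without the WT M0 library) and such genes between 255 and 386 (386 without the WT M0 library), and gave 566 to 765 genes lower and 662 to 789 higher. Of 1260 values of 90 named genes under 14 alternatives, 8 changed sign: Nos2 (0.6339), Cbx2 (16.24), Lcn2 (12.16) and Isl1 (-2.323) with the upper 50% by score, Cdkn2b (-13.99) at a length matched by score, Cd8b1 (-2.487) and Tnfsf13b (-0.3695) at a length matched by tags per kb, and H2-Oa (3.283) with regions of at least 2 kb. Of the 87 named genes with a difference, the difference fell by over 1.5 times, to 0 or past it for 46 with the upper 50% by score, 22 and 15 at lengths matched by tags per kb and by score, 12 with regions of at least 2 kb and 8 with regions joined across 5 kb; it was 0 for 7 with the upper 50% by score and 9 with regions of at least 2 kb. No paired analysis was possible because M0 has 1 library per genotype and its titles carry no replicate number, so the groups share fewer than 2 numbers; with labels permuted within genotype the covered length, broad share and Jaccard difference each gave p = 0.111 (exact permutation, the smallest possible).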
